A study of Homo sapiens with 8 samples.

Results

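The 9 genes described here encode the ligands TGFB1 and TGFB2, the signalling receptors TGFBR1 and TGFBR2, the co-receptors TGFBR3 (betaglycan) and ENG (endoglin), the signal transducers SMAD3 and SMAD7, and the target gene SKIL. They were taken by name, as known parts of the transforming growth factor beta (TGF-beta) pathway, from the 60230 genes of 1 count table, with earlier results of these data known, so their shares of calls are a description and no test. RNA of HepG2 cells was sequenced, a human line derived from a liver tumour, here a derivative that overexpresses the drug-metabolising enzyme CYP2C19 and was kept in medium with the selection antibiotic blasticidin. The 4 groups held 2 libraries each: cells given the solvent DMSO, and cells given compound 4, compound 5 or compound 6, which are additives used in plastics. The samples' records call the compounds metylcresol, tetrabut and cyclohexil, in that order, and number the libraries of each group day 1 and day 2, here replicate 1 and replicate 2. The record holds this day under the heading time. It was read as the day of an experiment, not as the length of exposure. The paper's methods give the same incubation time for all groups and describe the 2 libraries of a group as replicates. Standard errors, p-values and values by day rest on that reading. The question the comparisons address is how exposure to each compound altered gene expression in these cells.

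Each compound was given at its own half-maximal inhibitory concentration, so the concentrations were not identical. The paper describes these values for compounds 4, 5 and 6 as rather comparable. Compounds 4 and 6 are bisphenols joined by a methylene bridge, and they differ in the group next to the hydroxyl group, which is tert-butyl in compound 4 and cyclohexyl in compound 6. In compound 5 the bridge is an ethylidene group and both bulky ring substituents are tert-butyl. All 4 groups carried the CYP2C19 transgene, whose promoter and clonal origin are not given in the sources used here. The records do not say that the libraries of a group came from separate cultures, so the p-values measure the spread between these libraries, which may be technical.

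In this pathway a secreted TGF-beta dimer binds the type 2 receptor TGFBR2, which recruits and phosphorylates the type 1 receptor TGFBR1, and this in turn phosphorylates SMAD2 and SMAD3. The phosphorylated SMADs bind SMAD4 and enter the nucleus, where they switch on target genes, among them the inhibitors SMAD7 and SKIL that damp the signal. In the liver the pathway is known for restraining hepatocyte division and for driving stellate cells to lay down matrix.

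Between 9791659 and 17814595 counts were assigned to genes per library, a range of 1.82-fold. Levels are given as CPM, the gene's share of all counts of a library, scaled to 1000000 counts after normalization, and a gene was called when its adjusted p was below 0.05 among the 13400 genes tested. CYP2C19 itself was present in every library, and its level differed between the groups. It had 27.7 and 16.4 CPM in DMSO and 31.4 and 44.3 under compound 4. Under compound 5 it had 52.8 and 38 CPM, and under compound 6 23.9 and 21.2. The part of this level in any result was not tested. The 10 hepatocyte markers examined, among them ALB and HNF4A, were present in all libraries, with a summed level of 54300 to 58800 CPM in the DMSO libraries, 37700 to 45900 under compound 4, 46500 to 47600 under compound 5 and 41000 to 47400 under compound 6. Not every marker followed this sum. HNF4A had a mean of 306 CPM in DMSO and 325, 274 and 322 under compounds 4, 5 and 6. FGB had 186 CPM in DMSO and 144, 269 and 135, and was called higher under compound 5 (log2-fold change 0.53, adjusted p = 0.03 by edgeR's quasi-likelihood test). Whether the lower summed level plays a part in any result was not tested. All libraries came from the same cell line. In bulk RNA, fewer cells expressing a marker and less of its RNA per cell cannot be told apart.

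The start regions of the 3 members called under compound 4 are shown because their transcripts rose together in that comparison. Each is 300 bases long, 250 before and 50 after the RefSeq transcription start, on build GRCh38.p14, and is written 5′ to 3′ on the gene's strand. Capitals mark matches to CAGAC on either strand, the letters SMAD3 is known to bind, or to TGACGTCA, the cyclic AMP response element bound by CREB and ATF factors. TGANTCA, letters that include the AP-1 element, was searched as well, and the motifs were read on both strands with no overlap between them in these windows.
SKIL, chr3:170357465-170357764, plus strand: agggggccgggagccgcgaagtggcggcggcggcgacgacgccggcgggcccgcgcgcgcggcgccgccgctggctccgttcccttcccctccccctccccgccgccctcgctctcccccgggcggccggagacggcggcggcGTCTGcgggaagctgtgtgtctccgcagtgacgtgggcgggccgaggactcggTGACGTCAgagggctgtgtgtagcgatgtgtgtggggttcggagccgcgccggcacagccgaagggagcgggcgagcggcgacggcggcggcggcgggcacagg
ENG, chr9:127854609-127854908, minus strand: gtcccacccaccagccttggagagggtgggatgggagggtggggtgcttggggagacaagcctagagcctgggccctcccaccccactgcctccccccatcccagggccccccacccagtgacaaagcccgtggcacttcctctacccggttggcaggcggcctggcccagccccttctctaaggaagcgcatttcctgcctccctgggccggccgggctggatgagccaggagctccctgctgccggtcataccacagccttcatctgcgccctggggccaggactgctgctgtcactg
TGFB1, chr19:41353873-41354172, minus strand: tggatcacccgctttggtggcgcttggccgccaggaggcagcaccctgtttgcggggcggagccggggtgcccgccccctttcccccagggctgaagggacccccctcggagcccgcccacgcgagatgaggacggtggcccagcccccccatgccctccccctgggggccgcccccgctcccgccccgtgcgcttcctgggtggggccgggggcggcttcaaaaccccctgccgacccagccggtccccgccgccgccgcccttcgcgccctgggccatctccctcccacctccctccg
The SKIL window held 1 CAGAC, on the minus strand of the gene (GTCTG as printed), at position −107 from the start, and 1 TGACGTCA, at position −54, while the ENG and TGFB1 windows held none of the 3 motifs. Of 35116 RefSeq start windows of this length, 45.3% held CAGAC on either strand, 1.85% held TGACGTCA and 7.71% held TGANTCA. Across all 23 windows of the 9 members, CAGAC occurred in 11, in windows of SKIL, SMAD3, SMAD7, TGFB2 and TGFBR1. TGACGTCA occurred in 1 window, that of SKIL, and TGANTCA in 2, one of TGFBR2 and one of SMAD3. A match describes the letters and does not show that a factor is bound there.

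In DMSO-treated cells the pathway's parts were present at unequal levels. Per kilobase of exon, TGFBR2 had the highest level, 42.9 ± 1.79 CPM per kb (SD, n = 2), followed by TGFBR3 at 32.4 ± 2.63, TGFB1 at 15.6 ± 3.98 and SMAD3 at 7.64 ± 1.33 CPM per kb. These 4 genes were each separated from the next by a gap with no overlap between their libraries. The length used was that of all annotated exons of a gene, not of the transcripts expressed, and the order depends on it. By mean CPM alone, TGFBR3 (282) stood above TGFBR2 (202), and SMAD3 (69.6) above TGFB1 (50.6). Lower down, TGFBR1 stood at 3.62 ± 0.2 CPM per kb and SMAD7 at 3.48 ± 0.0491, and the libraries of these neighbours overlapped. SKIL at 2.36 ± 0.229 and ENG at 1.84 ± 0.262 CPM per kb were the lowest of the members detected. TGFB2 had 0 counts in all 8 libraries.

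Under compound 4, ENG, SKIL and TGFB1 were higher than in DMSO, by 3.41-fold, 2.27-fold and 1.96-fold, and no member was called lower. These were 3 of the 8 members tested, or 37.5%, against 9.51% of all tested genes called in this comparison and 5.6% called higher. Compound 5 gave 1 call, TGFBR2, which was 1.68-fold higher, or 12.5% of the members tested against 8.3% of all genes, 5.35% higher. Compound 6 also gave 1 call, ENG, 2.43-fold higher, where 0.575% of all genes were called, 0.493% higher. The median log2-fold change of the 8 members was 0.54, 0.49 and 0.30 for compounds 4, 5 and 6, beside medians over all genes of 0.0131, 0.00373 and 0.0198. These 3 comparisons share the DMSO libraries. With the day as a block, 5 members were called under compound 4, TGFBR3 and SMAD7 being the additions.

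TGFB1, the ligand most widely expressed of its family (chromosome 19, 41301587 to 41353911, minus strand, GRCh38), had 59.7 and 41.5 CPM in the DMSO libraries. It had 94.5 and 103 CPM under compound 4, 84.5 and 63.4 under compound 5 and 62.1 and 78.4 under compound 6. All 6 treated libraries lay above both DMSO libraries, and the compound 4 pair lay above every other library. The log2-fold change was 0.97 ± 0.2 (SE, adjusted p = 0.019) under compound 4, where this and all later adjusted p are Benjamini-Hochberg values from edgeR's quasi-likelihood fit. It was 0.55 (adjusted p = 0.11) under compound 5 and 0.48 (adjusted p = 0.24) under compound 6, neither called. Within days the compound 4 difference was 0.66 on day 1 and 1.31 on day 2 on the log2 scale. Leaving out DMSO replicate 2 (0.73, adjusted p = 0.17) or compound 4 replicate 2 (0.9, adjusted p = 0.12) ended the call. A group left with 1 library takes its spread from the other groups, and with these libraries left out the calls over all genes fell from 1275 to 43 and 152, so a lost call in such a fit does not show a smaller difference. Of the exon bases of TGFB1, 215 are shared with HNRNPUL1 on the opposite strand, a gene with 2414 to 4665 counts per library, and although the library kit was a directional one, which keeps the strand of the reads, whether the counting used it is not given in the sources used here.

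TGFB2, a ligand that needs betaglycan for high-affinity binding to TGFBR2 (chromosome 1, 218346235 to 218444619, plus strand), had no count in any library. A count of 0 allows up to 3 counts per library, or 0.171 to 0.307 CPM, counting error only, so a change in TGFB2 was not detectable at this depth.

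Of the signalling receptors, TGFBR2 was called under compound 5 and TGFBR1 under no compound. TGFBR2, the receptor that binds the ligand (chromosome 3, 30606502 to 30694142, plus strand), had 208 and 196 CPM in DMSO, 234 and 271 under compound 4, 373 and 309 under compound 5 and 224 and 247 under compound 6. The compound 5 libraries were the highest of all 8, and every treated library lay above the DMSO pair. Its log2-fold change was 0.75 ± 0.13 (SE, adjusted p = 0.011) under compound 5, against 0.32 (adjusted p = 0.14) under compound 4 and 0.22 (adjusted p = 0.38) under compound 6. The compound 5 difference was 0.84 on day 1 and 0.65 on day 2. It was no longer called on leaving out DMSO replicate 1 (0.78, adjusted p = 0.076), DMSO replicate 2 (0.71, adjusted p = 0.12) or compound 5 replicate 1 (0.6, adjusted p = 0.073).

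TGFBR1, the kinase that phosphorylates SMAD2 and SMAD3 (chromosome 9, 99104038 to 99154192, plus strand), had 25.7 and 23.8 CPM in DMSO. It had 20.7 and 18.7 CPM under compound 4, 22.1 and 18.6 under compound 5 and 22 and 21.2 under compound 6. The 6 treated libraries all lay below the DMSO pair, but by little. The log2-fold changes were −0.33 (adjusted p = 0.16, 95% interval −0.64 to −0.02), −0.29 (adjusted p = 0.2, −0.59 to 0.02) and −0.2 (adjusted p = 0.48, −0.5 to 0.11).

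The co-receptors are proteins with large extracellular domains that present ligands to the signalling receptors. ENG, known chiefly from endothelium, where it binds BMP9 and BMP10 (chromosome 9, 127815012 to 127854756, minus strand), had 7.99 and 6.53 CPM in DMSO. It had 25.2 and 24.2 CPM under compound 4, 11.6 and 9.84 under compound 5 and 17.5 and 17.7 under compound 6. The 4 groups did not overlap, and their order was compound 4, compound 6, compound 5, DMSO. These levels rest on 78 counts in each DMSO library and on 141 to 318 in the treated libraries.

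The log2-fold change of ENG was 1.77 ± 0.16 (SE, adjusted p = 0.0013) under compound 4, 1.28 ± 0.17 (SE, adjusted p = 0.023) under compound 6 and 0.56 ± 0.17 (SE, adjusted p = 0.066) under compound 5, the last not called. By day, compound 4 differed from DMSO by 1.6 and 1.81, compound 6 by 1.08 and 1.37, and compound 5 by 0.51 and 0.56. The compound 4 call held in all 14 alternative settings that gave a test, with log2-fold changes of 1.6 to 1.91 over these and the 2 that gave a value alone. For compound 6 the difference was 1.42 on leaving out DMSO replicate 1 (adjusted p = 0.093), 1.14 on leaving out DMSO replicate 2 (adjusted p = 0.33) and 1.27 on leaving out compound 6 replicate 2 (adjusted p = 0.18). None of these was called, in fits that called 5, 2 and 4 of all genes.

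Because ENG marks endothelium, 8 endothelial markers were read beside it. KDR, TEK, STAB2 and CLEC4G had 0 counts in all libraries, and no library had more than 13 counts of VWF, 7 of PECAM1, 6 of CDH5 or 3 of LYVE1. The summed level of the list was 1.26 to 1.54 CPM in DMSO, 0.988 to 1.5 under compound 4, 0.91 to 1.07 under compound 5 and 0.981 to 2.18 under compound 6. It did not follow the order of ENG. An antisense transcript that shares 313 exon bases with ENG, AL162586.1, had at most 2 counts.

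TGFBR3, a co-receptor that binds all TGF-beta ligands and inhibin (chromosome 1, 91680343 to 91906335, minus strand), had 298 and 266 CPM in DMSO, 217 and 167 under compound 4, 306 and 238 under compound 5 and 268 and 224 under compound 6. The compound 4 libraries were the lowest of all 8, while those of compound 5 lay on either side of the DMSO pair. Its log2-fold change under compound 4 was −0.56 ± 0.17 (SE, adjusted p = 0.065), not called, and with the day as a block it was called (adjusted p = 0.0099). Over all alternatives with a test this adjusted p ran from 0.00025 to 0.32. Under compounds 5 and 6 the log2-fold changes were −0.05 (adjusted p = 0.85) and −0.2 (adjusted p = 0.56). Per kilobase of exon, the co-receptor levels were 32.4 CPM for TGFBR3 and 1.84 for ENG in DMSO, and 22.1 and 6.28 under compound 4.

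**Figure D1:**
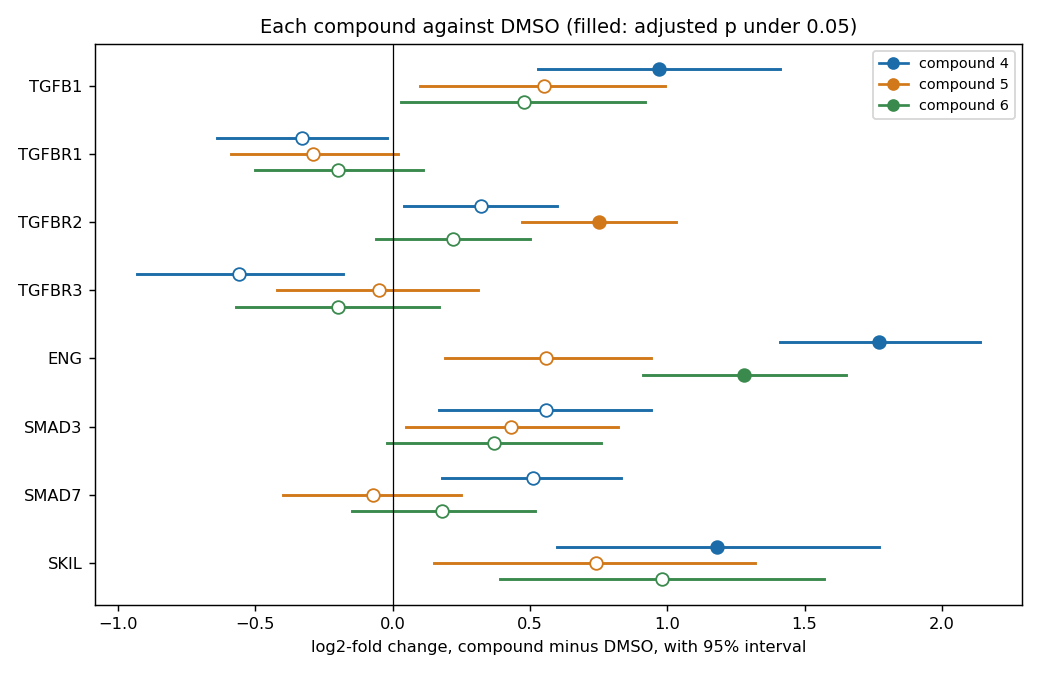
Log2-fold change of each tested member against DMSO, with 95% intervals from the fit (filled points, adjusted p below 0.05). Filled points are ENG, SKIL and TGFB1 for compound 4, TGFBR2 for compound 5 and ENG for compound 6, all to the right of 0.

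SMAD3, the transducer that carries the signal to DNA (chromosome 15, 67063763 to 67195195, plus strand), had 78.2 and 61 CPM in DMSO. Its levels were 89.5 and 115 CPM under compound 4, 106 and 82.6 under compound 5 and 86.7 and 92.9 under compound 6. All 6 treated libraries lay above the DMSO pair, and no comparison with DMSO was called by edgeR. The log2-fold changes were 0.56 ± 0.17 (SE, adjusted p = 0.072), 0.43 (adjusted p = 0.14) and 0.37 (adjusted p = 0.29), and the compound 4 difference was 0.19 on day 1 and 0.91 on day 2. DESeq2 called it under compound 4 (0.55, adjusted p = 0.028), as did edgeR on leaving out compound 5 replicate 1 (adjusted p = 0.046), in a range of 0.0015 to 0.4 over the alternatives. SMAD3 shares 182 exon bases with the antisense gene AC087482.1, which had 7 to 17 counts per library.

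SMAD7, an inhibitor that blocks TGFBR1 and recruits ubiquitin ligases to it, had 17.3 and 17.7 CPM in DMSO. Under compound 4 it had 23.1 and 26.5 CPM, under compound 5 17.4 and 15.9, and under compound 6 18.1 and 21.7. The compound 4 libraries were the 2 highest of all 8, and those of compound 5 overlapped DMSO. The log2-fold change there was 0.51 ± 0.15 (SE, adjusted p = 0.057), not called, and 0.049 was its adjusted p with the day as a block, the lowest in a range up to 0.27 over the alternatives. Compounds 5 and 6 gave −0.07 (adjusted p = 0.77) and 0.18 (adjusted p = 0.54).

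SKIL (also called SnoN), a corepressor that binds SMADs and is itself a SMAD target gene (chromosome 3, 170357678 to 170396835, plus strand), had 19.7 and 17.2 CPM in DMSO. It had 32.7 and 50.7 CPM under compound 4, 37.9 and 23.8 under compound 5 and 32.3 and 40.1 under compound 6. All 6 treated libraries lay above the DMSO pair, and the treated groups overlapped each other. Only the compound 4 difference was called, with a log2-fold change of 1.18 ± 0.26 (SE, adjusted p = 0.024). Compound 6 gave 0.98 ± 0.26 (SE, adjusted p = 0.11) and compound 5 gave 0.74 ± 0.26 (SE, adjusted p = 0.11), and DESeq2 called both (adjusted p = 0.0081 and 0.041, in ranges up to 0.53 and 0.49 over the alternatives). The compound 4 difference was 0.72 on day 1 and 1.54 on day 2, and its call was lost on leaving out DMSO replicate 1 (1.28, adjusted p = 0.081), DMSO replicate 2 (1.09, adjusted p = 0.2) or compound 4 replicate 2 (0.83, adjusted p = 0.16).

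Counting the libraries alone, 6 of the 8 members lay above both DMSO libraries under compound 4 and the other 2, TGFBR1 and TGFBR3, lay below. For comparison, 30.4% of all tested genes lay above and 28% below. Under compound 5, 5 members lay above and 1 below, and under compound 6, 6 lay above and 1 below. The shares over all genes were 31% and 28.5% for compound 5, and 29.3% and 26% for compound 6.

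Between the compounds, ENG gave the 1 call. It was 2.31-fold higher under compound 4 than under compound 5, a log2 difference of 1.21 ± 0.15 (SE, adjusted p = 0.016, 95% interval 0.87 to 1.55), where 0.313% of all genes were called. This call was lost in a fit of those 4 libraries alone (1.21, adjusted p = 0.072), and on leaving out compound 4 replicate 1 (1.17, adjusted p = 0.12), compound 4 replicate 2 (1.24, adjusted p = 0.096) or compound 5 replicate 2 (1.09, adjusted p = 0.093). Compound 6 exceeded compound 5 by 0.72 (adjusted p = 0.064, interval 0.37 to 1.07), and with the day as a block the adjusted p was 0.046, in a range of 0.012 to 0.35 over the alternatives. That comparison called 1.03% of all genes and 0 members, of which 2 had an unadjusted p below 0.05 and DESeq2 called 1. Compound 4 exceeded compound 6 by 0.49 (adjusted p = 0.53, interval 0.15 to 0.83).

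Compounds 4 and 6, which differ in tert-butyl against cyclohexyl, gave 0 calls among the members and 0 among all genes by edgeR's quasi-likelihood test, while 945 genes, 7.05%, and 2 members had an unadjusted p below 0.05. DESeq2's test called 0 of the members and 59 of all genes in this pair. TGFB1 was 0.5 higher under compound 4 than under compound 6 (adjusted p = 0.63, interval 0.06 to 0.93) and TGFBR3 0.36 lower, as a difference of −0.36 (adjusted p = 0.72, interval −0.73 to 0.01). SKIL differed by 0.21 (interval −0.35 to 0.77) and TGFBR2 by 0.1 (interval −0.18 to 0.38). These intervals leave room for differences of either sign in SKIL and TGFBR2.

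For TGFBR2, compound 5 gave the highest levels. Compound 4 minus compound 5 was −0.43 (adjusted p = 0.16, interval −0.71 to −0.16) and compound 6 minus compound 5 was −0.53 (adjusted p = 0.074, interval −0.81 to −0.25), neither called, though DESeq2 called the latter (adjusted p = 0.0082, range over the alternatives 0.001 to 0.45). For TGFBR3 the difference between compounds 4 and 5 was −0.5 ± 0.17 (SE, adjusted p = 0.2), and it was called with the day as a block (adjusted p = 0.047, range over the alternatives 0.0041 to 0.46). SMAD7 was 0.58 higher under compound 4 than under compound 5 without a call (adjusted p = 0.12, interval 0.26 to 0.9).

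**Figure D2:**
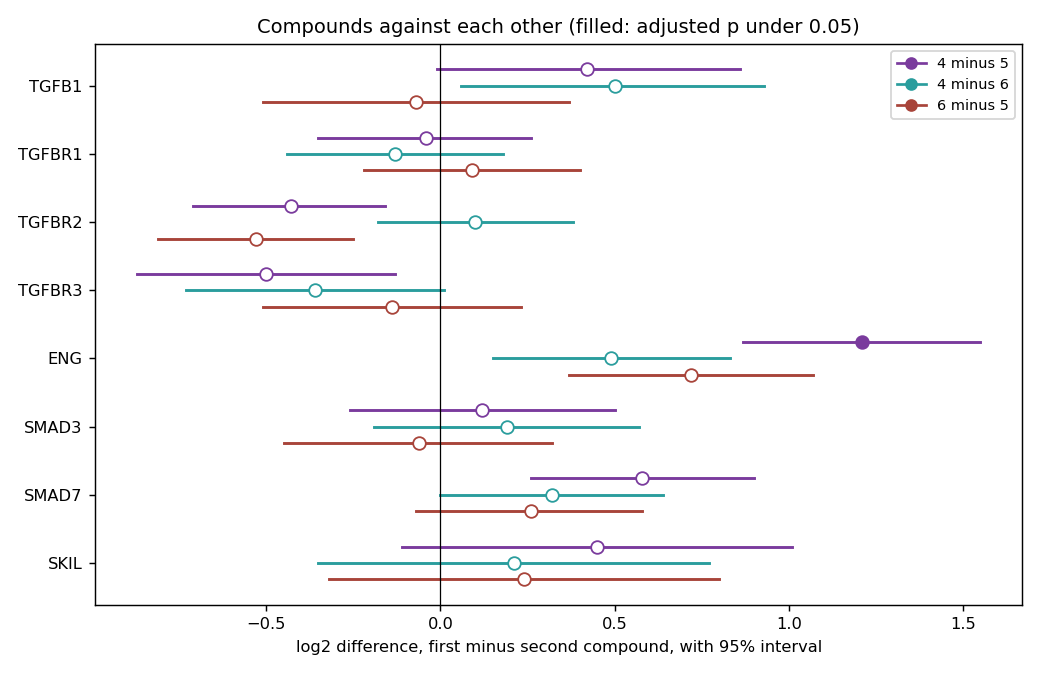
Log2 difference between the compounds for each tested member, first compound minus second, with 95% intervals from the fit (filled point, adjusted p below 0.05). The single filled point is ENG for compound 4 minus compound 5, at 1.21.

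The rest of the pathway was read from 6 lists, also chosen with earlier results known, holding 134 further genes, of which 97 were tested and 24 had no count in any library. Under compound 4, 23 of the 97 rose and 3 fell, 26.8% of those tested against 9.51% of all genes. Under compound 5, 9 rose and 3 fell, or 12.4% against 8.3%, and under compound 6, 1 rose, or 1.03% against 0.575%, while 29 had an unadjusted p below 0.05 and DESeq2 called 12. Median log2-fold changes over the 97 were 0.16, 0.16 and 0.17. The count under compound 4 fell to 11 on leaving out DMSO replicate 1, to 1 on leaving out DMSO replicate 2 and to 2 on leaving out compound 4 replicate 2, where the calls over all genes fell from 1275 to 390, 43 and 152. Leaving out a DMSO library took the count under compound 5 to 2 (replicate 1) or 0 (replicate 2), and leaving out one of its own took it to 1 (replicate 1) or 24 (replicate 2).

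**Figure D3:**
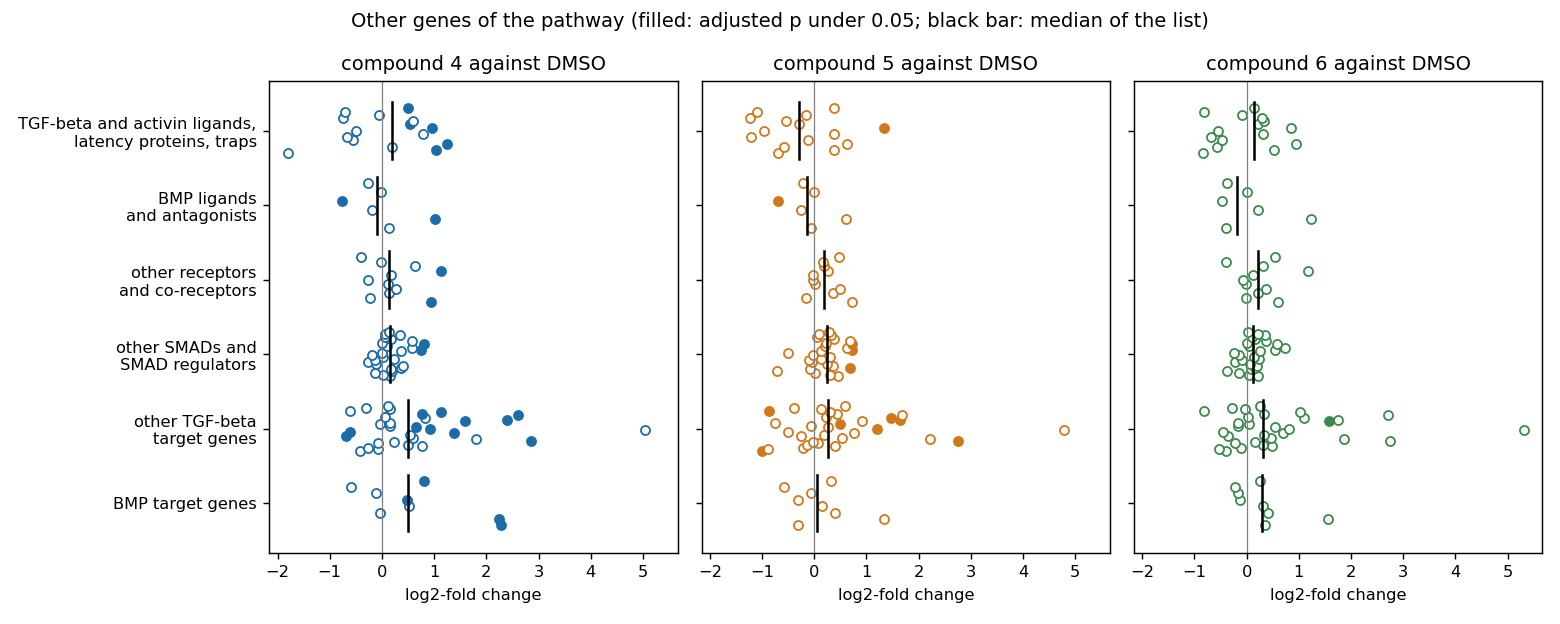
Log2-fold change against DMSO of the tested genes in each of the 6 further lists, 1 point per gene (filled, adjusted p below 0.05), with a black bar at each list's median. Under compound 4 the filled points lie mostly to the right of 0. Among the 31 other TGF-beta target genes 11 are filled, 35.5% against 9.51% of all genes.

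Among 25 genes for TGF-beta and activin ligands, latency proteins and ligand traps, 15 were tested, and 5 rose under compound 4, 1 under compound 5 and none under compound 6. Those called were 33.3%, 6.67% and 0% of the tested, against 9.51%, 8.3% and 0.575% of all genes. The list medians were 0.19, −0.29 and 0.14. FURIN, a protease that cleaves TGF-beta precursors, had 61.7 and 55.1 CPM in DMSO and 118 and 160 under compound 4, a log2-fold change of 1.25 ± 0.2 (SE, adjusted p = 0.0082). FST (follistatin), a secreted trap for activins, had 124 and 82.3 CPM in DMSO and 229 and 191 under compound 4, a change of 1.03 ± 0.22 (SE, adjusted p = 0.024). INHBE, a liver-enriched activin subunit, rose under both compound 4 (0.95, adjusted p = 0.041) and compound 5 (1.33, adjusted p = 0.015), from 35.6 and 25.7 CPM to 48.9 and 69.2, and to 92.7 and 60.9. In these 3 genes, no DMSO library overlapped the treated pair named. Under compound 6 the largest difference was that of FURIN, 0.94 (adjusted p = 0.059).

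Of 18 genes for BMP ligands and antagonists, 6 were tested, with medians of −0.1, −0.14 and −0.18. Under compounds 4, 5 and 6, 33.3%, 16.7% and 0% of the tested were called, against 9.51%, 8.3% and 0.575% of all genes. BMP6, which tells hepatocytes of iron load, had 7.17 and 5.36 CPM in DMSO and 10.2 and 14.9 under compound 4, where it rose by 1.02 ± 0.27 (SE, adjusted p = 0.044) on the log2 scale. GDF7, another ligand of the BMP group, fell under compound 4 (−0.77, adjusted p = 0.014) and compound 5 (−0.7, adjusted p = 0.021), from 42.8 and 43.8 CPM to 26.3 and 24.6, and to 23.6 and 29.6. Compound 6 gave no call, with 1.23 (adjusted p = 0.067) for BMP6.

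Among 17 other receptors and co-receptors, 11 were tested and 2 rose under compound 4, with list medians of 0.13, 0.19 and 0.22. These 2 were 18.2% of the tested, against 9.51% of all genes. None was called under compounds 5 and 6, where 8.3% and 0.575% of all genes were. CD109, a cell-surface co-receptor known to dampen TGF-beta signalling, had 4.82 and 4.1 CPM in DMSO and 8.63 and 10.9 under compound 4, a log2-fold change of 1.14 ± 0.22 (SE, adjusted p = 0.015). Under compound 6 it had 11.1 and 8.91 CPM, a difference of 1.17 that was not called (adjusted p = 0.054). ACVR1, a type 1 receptor for BMPs, had 9.84 and 9.46 CPM in DMSO and 17.5 and 19.4 under compound 4, a change of 0.94 ± 0.22 (SE, adjusted p = 0.029). Under compound 5 it had 19.7 and 12.3 CPM, with a difference of 0.72 that was not called (adjusted p = 0.071).

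In the list of 27 other SMADs and SMAD regulators, 26 were tested. Under compound 4, 2 rose, and under compound 5, 3, while none was called under compound 6, with list medians of 0.15, 0.23 and 0.12. Those called were 7.69% of the tested under compound 4, below the 9.51% of all genes. Under compound 5 they were 11.5% against 8.3%, and under compound 6 0.575% of all genes were called. TGIF1, a homeobox corepressor of SMAD2 and SMAD3, rose under compound 4 (0.81, adjusted p = 0.026) and compound 5 (0.72, adjusted p = 0.042), from 33.8 and 27.2 CPM to 52 and 55.1, and to 59.1 and 41.6. SMURF1, a ubiquitin ligase for SMADs and their receptors, rose under compound 4 (0.75, adjusted p = 0.038) and compound 5 (0.73, adjusted p = 0.047, and 0.053 with the day as a block, in a range up to 0.24 over the alternatives). It shares 735 exon bases with TRRAP on the opposite strand, which had 885 to 2203 counts. NEDD4L, a ubiquitin ligase for activated SMAD2 and SMAD3, rose under compound 5 (0.68, adjusted p = 0.015), from 116 and 99 to 189 and 156 CPM. SMURF2 had the largest difference under compound 6, 0.73 (adjusted p = 0.21).

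The largest of the 6 lists held target genes of TGF-beta. Of 38 other TGF-beta target genes 31 were tested. Under compound 4, 9 rose and 2 fell, under compound 5, 5 rose and 2 fell, and under compound 6, 1 rose. Those called were 35.5%, 22.6% and 3.23% of the tested, against 9.51%, 8.3% and 0.575% of all genes. The medians were 0.49, 0.27 and 0.32. CDKN2B, an inhibitor of cell division, had 0.512 and 0.754 CPM in DMSO, 3.19 and 6.08 under compound 4 and 6.09 and 2.9 under compound 5, with log2-fold changes of 2.85 ± 0.68 (SE, adjusted p = 0.032) and 2.76 ± 0.68 (SE, adjusted p = 0.039). SERPINE2, a secreted protease inhibitor, had 3.89 and 2.6 CPM in DMSO, 12.4 and 21.4 under compound 4 and 12.2 and 8.14 under compound 5, rising by 2.4 ± 0.33 (SE, adjusted p = 0.005) and 1.65 ± 0.34 (SE, adjusted p = 0.021). TAGLN, an actin-binding protein of smooth muscle, rose under compound 4 by 2.6 ± 0.53 (SE, adjusted p = 0.019), from 3 and 6 counts to 20 and 42, and shares 446 exon bases with PCSK7 on the opposite strand, which had 189 to 350 counts. Under compound 5 TAGLN differed by 1.68 (adjusted p = 0.09), not called. Differences of similar size under compound 6 were not called: 2.74 for CDKN2B (adjusted p = 0.094), 1.75 for SERPINE2 (adjusted p = 0.054) and 2.7 for TAGLN (adjusted p = 0.054).

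SNAI1, a repressor of epithelial genes, rose under compound 5 by 1.46 ± 0.29 (SE, adjusted p = 0.02), from 2.46 and 2.26 CPM to 7.9 and 5.18. Other targets fell. Under compound 4 these were DAPK1, a death-associated kinase, by −0.69 ± 0.12 (SE, adjusted p = 0.012), and HMGA2, a chromatin protein, by −0.62 ± 0.14 (SE, adjusted p = 0.027). Under compound 5 they were ACTA2, smooth muscle actin, by −1 ± 0.23 (SE, adjusted p = 0.032), and TIMP3, a metalloproteinase inhibitor, by −0.87 ± 0.18 (SE, adjusted p = 0.024). TIMP3 had 207 and 180 CPM in DMSO and 95.2 and 117 under compound 5. Under compound 6 it had 127 and 93.9 CPM, a difference of −0.81 that was not called (adjusted p = 0.074). Under compound 4 TIMP3 had 145 and 109 CPM, a difference of −0.61 that was not called (adjusted p = 0.066) but was with the day as a block (adjusted p = 0.048, range over the alternatives 9.5e-05 to 0.32). ACTA2 shares 380 exon bases with FAS on the opposite strand, which had 43 to 92 counts.

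Several of these targets are also mesenchymal genes, so 8 markers of stellate cells and fibroblasts were read beside them. LRAT, PDGFRA, DCN and LUM had 0 counts in all libraries, and COL1A1 and COL3A1 had at most 1. The summed level was 5.95 to 9.74 CPM in DMSO, 23.8 to 25.9 under compound 4, 7.97 to 11.9 under compound 5 and 15.1 to 16.1 under compound 6. PDGFRB carried nearly all of it, with a mean of 7.07 CPM in DMSO and 24.2 under compound 4, where it rose by 1.79 on the log2 scale (adjusted p = 0.0063). The part of this sum in the target results was not tested. Of 8 leukocyte and macrophage markers, PTPRC, CD163, MARCO and CD3E had 0 counts, and the summed level, mostly LYZ, was 1860 to 2190 CPM in DMSO and 1420 to 1900 in the treated groups. LYZ differed by −0.32 under compound 4 (adjusted p = 0.21), while CD68, a lysosomal protein, rose there by 0.8 (adjusted p = 0.016), from a mean of 22.4 to 38.9 CPM, and CD14 differed by 1.42 (adjusted p = 0.093) at up to 21 counts. Their part in the target results was not tested.

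BMP target genes were called under compound 4, and 0 were called under compounds 5 and 6, each with 2 of the list at an unadjusted p below 0.05. Of 9 in the list 8 were tested, and 4 rose under compound 4, with list medians of 0.5, 0.04 and 0.29 for compounds 4, 5 and 6. These 4 were 50% of the tested, against 9.51% of all genes. Under compounds 5 and 6, 8.3% and 0.575% of all genes were called. ATOH8, a transcription factor induced by BMP signals in hepatocytes, had 1.74 and 1.84 CPM in DMSO, 7.88 and 9.5 under compound 4, 1.4 and 1.48 under compound 5 and 2.26 and 2.37 under compound 6. The compound 4 libraries were far above all 6 others. It rose by 2.27 ± 0.26 (SE, adjusted p = 0.003), a call that held in all 14 alternatives with a test, and differed by −0.31 (adjusted p = 0.52) under compound 5 and 0.36 (adjusted p = 0.54) under compound 6.

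HAMP, which encodes the iron hormone hepcidin, had 30.3 and 8.79 CPM in the DMSO libraries, far apart for libraries of 1 group, and 81.3 and 100 under compound 4, 57.8 and 39.6 under compound 5 and 49.3 and 63.8 under compound 6. It rose under compound 4 by 2.24 ± 0.43 (SE, adjusted p = 0.015), and compounds 5 and 6 gave 1.33 (adjusted p = 0.08) and 1.55 (adjusted p = 0.11). These values depend on the DMSO libraries. The compound 4 difference ran from 1.41 to 3.44 over the alternatives, and was not called on leaving out DMSO replicate 2 (1.58, adjusted p = 0.059) or compound 4 replicate 2 (2.08, adjusted p = 0.091). On leaving out DMSO replicate 1, both compound 5 (2.45, adjusted p = 0.022) and compound 6 (2.67, adjusted p = 0.041) were called, in ranges of adjusted p up to 0.32 and 0.51. MSX1, a homeobox BMP target, had 35.1 and 40.3 CPM in DMSO and 69 and 63.4 under compound 4, a rise of 0.81 ± 0.17 (SE, adjusted p = 0.019).

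Of the 97 further genes, 3 were called between compounds 4 and 5, against 0.313% of all genes, and none in the other pairs, where 0% and 1.03% of all genes were called, and where 13 (compounds 4 and 6) and 14 (compounds 6 and 5) of the 97 had an unadjusted p below 0.05. The 3 are named after their values were seen. ATOH8 was higher under compound 4 by 2.58 ± 0.26 (SE, adjusted p = 0.0044). ID2, a BMP-induced inhibitor of helix-loop-helix factors, was higher by 0.8 ± 0.11 (SE, adjusted p = 0.024), with 145 and 122 CPM under compound 4 and 75 and 77.9 under compound 5. ITGAV, the integrin subunit that helps release latent TGF-beta, was higher by 0.82 ± 0.13 (SE, adjusted p = 0.041), with 153 and 162 against 96.6 and 82.2 CPM. Of the other BMP target genes tested, HAMP, MSX1 and ID1 were higher under compound 4 by 0.9, 0.49 and 0.36. HEY1, ID3 and ID4 gave differences of −0.42, −0.06 and −0.03 between these compounds. None of these was called.

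With a library left out, many of the list genes' calls were lost, in fits where a group had 1 library and the other groups supplied the spread. Of 18 called genes that the rule for named genes took under compound 4, 12 were lost on leaving out DMSO replicate 1 and 17 on leaving out DMSO replicate 2, and the treated libraries, left out in turn, cost 5 (replicate 1) and 16 (replicate 2). Of 10 taken under compound 5, all 10 were lost on leaving out either DMSO library or compound 5 replicate 1, and none on leaving out compound 5 replicate 2. The differences themselves moved less. DAPK1 under compound 4 was −0.66, −0.74 and −0.68 in the fits that lost its call, against −0.69 with all libraries. Larger shifts were those of SMURF1 under compound 4, 0.44 on leaving out compound 4 replicate 2, TGIF1 under compound 5, 0.44 on leaving out compound 5 replicate 1, and CDKN2B under compound 5, 2.15 on leaving out compound 5 replicate 1.

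For each called member, the 2 tested genes with the most similar profile of log2 CPM were taken over the 8 libraries, which share depth and treatment. ENG was nearest to SLC16A6 (Pearson r = 0.993) and FEZ2 (0.989), TGFB1 to SMAP1 (0.99) and TINAGL1 (0.983), TGFBR2 to ZFP91 (0.994) and ZNF664 (0.992), and SKIL to ELF4 (0.994) and SOS2 (0.993). With 8 libraries and 13400 genes to choose from, such values describe these libraries and no more.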

How the data were processed

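RNA-seq libraries of 8 samples were compared. According to the paper's methods and the submitters' processing notes, the authors checked reads with FastQC 0.12.0, quantified them with Salmon 1.5.0 on GRCh38 transcripts, summarized them to genes with tximeta and used DESeq2 1.38.3. The authors deposited these estimated counts per gene as whole numbers, without normalization. DMSO replicate 1 and compound 4 replicate 1 were each merged from 2 runs per the labels. Transcript length offsets were not used here.

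Counts were analysed with edgeR 4.0.16 in R 4.3.3, with TMM and the quasi-likelihood test on the 13400 genes that passed filterByExpr (minimum count 10), in 1 fit of all 8 libraries without a block, which left 4 residual degrees of freedom. Benjamini-Hochberg adjustment ran over all tested genes, with a threshold of 0.05. Standard errors are the log2-fold change divided by the root of F, and intervals are 95%. CPM used the normalized library sizes. The alternatives were DESeq2 1.42.0, the day as a block, a fit of the 4 libraries compared, DESeq2's size factors, 2 other filters, leaving out each library and leaving out each day. The script was tested on simulated data.

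The day number in the labels pairs the samples. Deviations of same-day libraries correlated over the 13400 genes with r = 0.07 (DMSO and compound 4), 0.23 (DMSO and compound 5), 0.12 (DMSO and compound 6), −0.16 (compounds 4 and 5), 0.3 (compounds 4 and 6) and −0.05 (compounds 5 and 6). No pair of replicates agreed within sampling noise.

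Positions are from GENCODE 29 on GRCh38, promoter windows from RefSeq GRCh38.p14, and 60089 identifiers matched a symbol. The members and gene lists were chosen with earlier results of these data known. Named list genes are, per list and compound, up to 3 called genes with the largest rise and up to 3 with the largest fall, or else the tested gene with the largest absolute change, and for each called member the 2 genes with the highest correlation over the libraries. The values of 1 list gene and 1 marker gene are not reported here.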

Additional observations from a re-analysis of the deposited data

Results flagged for a closer look

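ENG differed between compounds 4 and 5 in the reported fit. The test of the difference itself gave 1.21 on the log2 scale (adjusted p = 0.016), with both compound 4 libraries above both compound 5 libraries. The call was lost in a fit of only the 4 libraries compared (adjusted p = 0.072) and in some fits that left out a library. TGFBR3 under compound 5 differed from DMSO by 0.04 on day 1 and by −0.16 on day 2, opposite signs in the 2 days, and this difference between days was not tested. Groups of 2 libraries are too small for a test of single outlying libraries.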

How the results depend on the processing

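Of 768 recomputed log2 differences of the members, 695 were classed as unchanged, 15 lost a call, 32 gained one, 11 moved without a test and 15 changed sign, all 15 on leaving out single libraries. Where a test was run, unchanged meant the same direction and side of the threshold. With a whole day left out there was no test, and unchanged meant a value within the spread between the libraries compared. A change of sign was counted there only for differences called in the reported fit. Under compound 4, where 3 members were called, DESeq2, the day as a replicate block and no filter on low counts each gave 5, and leaving out a library 1 to 6 (1 without DMSO replicate 2 or compound 4 replicate 2, 6 without compound 5 replicate 1). Under compound 5 (1 called), DESeq2 gave 2, no filter 4 and leaving out a library 0 to 3 (0 without either DMSO library or compound 5 replicate 1, 3 without compound 5 replicate 2). Under compound 6 (1 called), DESeq2 and a fit of 4 libraries gave 2, no filter 3 and leaving out a library 0 to 2 (0 without either DMSO library or compound 6 replicate 2, 2 without compound 5 replicate 1). Between compounds 4 and 5 (1 called), the block gave 2, the fit of 4 libraries 0, no filter 4 and leaving out a library 0 to 1. Between 4 and 6 (0 called), no filter gave 1 and leaving out a library 0, and between 6 and 5 (0 called), DESeq2 and the block gave 1 and no filter 2.

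Of the 97 further pathway genes, leaving out a library gave 1 to 28 calls under compound 4 (26 in the reported fit) and 0 to 24 under compound 5 (12), where no filter gave 33. Under compound 6 (1), DESeq2 gave 12, the block 0, DESeq2's size factors 0, the fit of 4 libraries 18, no filter 26, at least 10 counts in every library 6, and leaving out a library 0 to 9 (9 without compound 5 replicate 1, 7 without compound 5 replicate 2). The cause was not tested. The block changed the member calls given in the report and no other member call, and, of the list genes named, those of TIMP3 and SMURF1 given there and that of HMGA2 under compound 5, which it called.

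Leaving out libraries changed the sign of these differences, with their range: TGFBR3 under compound 5, −0.26 to 0.12; for compound 4 minus 5, TGFBR1 −0.17 to 0.09 and SMAD3 −0.24 to 0.48; for 4 minus 6, TGFBR2 −0.01 to 0.2, SMAD3 −0.01 to 0.35 and SKIL −0.15 to 0.48; for 6 minus 5, TGFB1 −0.44 to 0.3, TGFBR1 −0.03 to 0.21, TGFBR3 −0.32 to 0.05, SMAD3 −0.28 to 0.17 and SKIL −0.23 to 0.74. Leaving out a whole day left 1 library per group and gave differences without a test. SKIL for compound 4 minus 5, 0.45 in the reported fit, changed sign only there, with a range of −0.21 to 1.08 over the alternatives. With 2 libraries per group, changes near the SE of a member could not be resolved.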

Other observations

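IL11, a cytokine and TGF-beta target gene outside the rule for named genes and chosen after its values were seen, had 0.102 and 0.167 CPM in the DMSO libraries, 0.0938 and 9.35 under compound 4, 6.17 and 2.16 under compound 5 and 0.883 and 10.8 under compound 6. Compound 4 replicate 1 held 1 count and replicate 2 held 123. With this gap between libraries of a group no comparison was called, the adjusted p being 0.14, 0.16 and 0.19 for compounds 4, 5 and 6. JUNB, an AP-1 subunit also chosen after its values were seen, rose under compound 4 by 0.92 ± 0.16 (SE, adjusted p = 0.01) and under compound 5 by 1.2 ± 0.15 (SE, adjusted p = 0.0047), from 13 and 12.1 CPM to 22.2 and 25.2, and to 29.8 and 27.9, and compound 6 gave 0.81 (adjusted p = 0.054).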
